A study of Mus musculus with 6 samples.

Results

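The expression of 10 genes of secreted signals, called the 10 factors, was examined in mouse embryonic fibroblasts (MEFs) that were wild type (WT) or knockout (KO) for the chromatin regulator Kansl1, a subunit of the NSL histone acetyltransferase complex. They are the chemokines Ccl2, Ccl7, Cxcl1, Cxcl5 and Cxcl12, the cytokines Il6, Lif and Csf1, the receptor gene Il1rl1 and the growth factor binding protein gene Igfbp3. They were taken by gene symbol from a table of 26898 genes, as fibroblast products that have been linked to the senescence secretome, the mixture of proteins that ageing or damaged cells release. The choice was made with earlier results of these data known. All 10 symbols were found once each. The name of secreted cytokines and chemokines covers the members loosely, since Il1rl1 encodes a receptor with a membrane form and a soluble form, and Igfbp3 encodes a carrier of growth factors.

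RNA sequencing was performed on primary MEFs of C57BL/6 background at passage 3, in medium with 10% serum by the labels. The study's general culture methods name another serum content. The 3 WT samples (WT 4, 5 and 8) were Kansl1fl/fl cells, in which both Kansl1 alleles carry recombination sites. The 3 KO samples (KO 3, 7 and 10) were Kansl1fl/fl/CAG-cre cells, which hold the same alleles plus an inducible Cre recombinase under the broadly active CAG promoter, and both groups had received 1 μM tamoxifen for 48 h. Cre was present in the KO samples alone, so loss of Kansl1 and presence of Cre cannot be told apart. The cells came from mid-gestation embryos. No litter, batch or date was given for the samples, so p-values measure only the spread between these samples.

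Chemokines are small proteins that guide migrating white blood cells. The CC chemokines Ccl2 and Ccl7 mainly attract monocytes, whereas the CXC chemokines Cxcl1 and Cxcl5 attract neutrophils. Fibroblasts produce many of these factors when the transcription factors NF-kB, AP-1 and C/EBP are activated by infection, injury or interleukin 1, and they also supply basal signals such as Csf1 for macrophage survival and Cxcl12 for the homing of blood stem cells.

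To show the DNA before the start sites of the factors, the 250 bases before the annotated start site were read from RefSeq windows. These windows, of build GRCm38.p6, contained 7 of the 10 factors. Ccl2, Ccl7 and Cxcl5 had no entry in this set. The 4 sequences chosen are those of Il6, Cxcl1 and Csf1, which hold letters of the NF-kB (kB) consensus, and of Igfbp3, which passed the test and holds none of the motifs searched. They are written 5′ to 3′ on the strand of the gene, and capitals mark matches to the 10-base kB consensus, to the AP-1 motif TGANTCA or to the C/EBP motif TTNNGCAA on either strand.
Il6, chr5:30012864-30013113, plus strand: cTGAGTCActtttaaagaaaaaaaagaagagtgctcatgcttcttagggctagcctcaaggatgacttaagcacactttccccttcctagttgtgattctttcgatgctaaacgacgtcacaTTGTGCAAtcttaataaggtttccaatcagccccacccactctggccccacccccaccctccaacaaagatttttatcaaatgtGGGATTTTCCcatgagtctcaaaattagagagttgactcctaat
Cxcl1, chr5:90890995-90891244, plus strand: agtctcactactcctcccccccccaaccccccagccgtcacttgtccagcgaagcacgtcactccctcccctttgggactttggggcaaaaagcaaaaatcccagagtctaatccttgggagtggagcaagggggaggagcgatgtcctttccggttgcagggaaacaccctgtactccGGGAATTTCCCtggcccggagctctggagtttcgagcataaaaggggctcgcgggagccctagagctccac
Csf1, chr3:107760470-107760719, minus strand: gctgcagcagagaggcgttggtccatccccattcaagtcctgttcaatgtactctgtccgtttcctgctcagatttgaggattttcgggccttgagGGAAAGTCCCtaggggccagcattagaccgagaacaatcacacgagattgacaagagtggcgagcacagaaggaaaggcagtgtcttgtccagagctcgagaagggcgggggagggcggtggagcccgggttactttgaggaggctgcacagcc
Igfbp3, chr11:7213924-7214173, minus strand: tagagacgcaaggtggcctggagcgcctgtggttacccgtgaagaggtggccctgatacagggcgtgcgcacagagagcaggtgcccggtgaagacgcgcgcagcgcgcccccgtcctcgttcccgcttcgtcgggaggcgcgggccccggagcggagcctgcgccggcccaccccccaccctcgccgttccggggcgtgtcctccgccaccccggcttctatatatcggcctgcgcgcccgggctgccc

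Il6 was the only one of the 7 genes with a match to each of the 3 motifs, at bases -249 to -243 for AP-1, -128 to -121 for C/EBP and -44 to -35 for the kB consensus, counted back from the start site. Cxcl1 held 2 kB matches on opposite strands that overlap each other, at -71 to -62 and -70 to -61. Csf1 held 1 kB match at -154 to -145. Lif held 1 AP-1 match at -228 to -222, and the first of the 2 annotated start sites of Il1rl1 held 1 C/EBP match at -34 to -27. Among 32536 windows of the same length, 3.92% held the kB consensus, 6.73% the AP-1 motif and 9.57% the C/EBP motif. These matches describe letters in the window and do not show that a factor binds there. Igfbp3 had the highest GC content of the 8 windows, 73.2%, and the first Il1rl1 window had the lowest, 37.6%, against a median of 52.4% over all windows.

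Expression was given as TPM, which corrects reads for gene length and sets every sample to one sum, so that levels of different genes can be compared. Reads assigned to genes, recovered from the TPM values, numbered 22812595 to 24263082 per WT library and 17655495 to 27718259 per KO library. A 57 bp RNA, Gm23935, took 15.5% to 24.3% of TPM in WT and 15.5% to 25.6% in KO samples, with the highest share in KO 3, which lowers the TPM of all other genes in such a sample. Rescaling by median ratios between samples shifted all genes by a median of 0.09 on the log2 scale. Kansl1 itself fell from a mean of 26.6 ± 2.06 TPM in WT to 14.6 ± 1.04 TPM in KO MEFs (SD, n = 3 each), 55.1% of WT (log2 fold change -0.82, limma adjusted p-value 0.000859). This value counts all exons of the gene, so it does not measure how complete the deletion was. The fibroblast markers Vim and Col1a1 reached 2228 to 2522 and 3080 to 5805 TPM in WT samples. The 10 fibroblast markers summed to 7198 to 11230 TPM in WT and 8222 to 10830 TPM in KO samples, with the lowest sum in WT 4.

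The question put to the data was whether the 10 factors differed between KO and WT MEFs. Expression of Ccl2, Ccl7 and Igfbp3 rose in KO MEFs, each to about the same degree, with ratios of mean TPM of 2.02, 1.91 and 1.93. The other 7 factors did not pass the thresholds, an adjusted p-value (limma, Benjamini and Hochberg) below 0.005 with a log2 fold change beyond 0.5 in size. The cut-offs are those of the study, which applied them to a different test, a count model. The factors were chosen with earlier results of these data known, so the shares of all genes given here test no excess among the factors. The count of factors called higher was 3 of 10, beside 1.64% of the 14799 tested genes called higher. Called lower were 0 of 10, beside 9.03% of tested genes. At an unadjusted limma p-value under 0.05, 6 of 10 were higher, beside 12.2% of tested genes, and 2 of 10 lower, beside 27.2%. Voom on recovered reads, another limma fit, called 3 factors higher, beside 4.33% of tested genes, and 0 lower, beside 12.1%. At an adjusted p-value under 0.05 with no fold limit, 5 of 10 were higher, beside 7.14% of tested genes. The 3 calls rested on the filter that kept genes of at least 1 TPM, since 0 factors were called when all 26898 genes were tested, a fit in which 0.204% of genes were called higher. Leaving out KO 7 left 0 factors called, with 0.568% of genes called higher. Leaving out WT 8 or KO 10 left 1 factor called, with 0.753% and 0.837% of genes called higher. All 10 factors had a mean of at least 1 TPM in both groups and were tested. The median log2 fold change was 0.49 for the 10 factors and -0.07 for all tested genes.

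**Figure D1:**
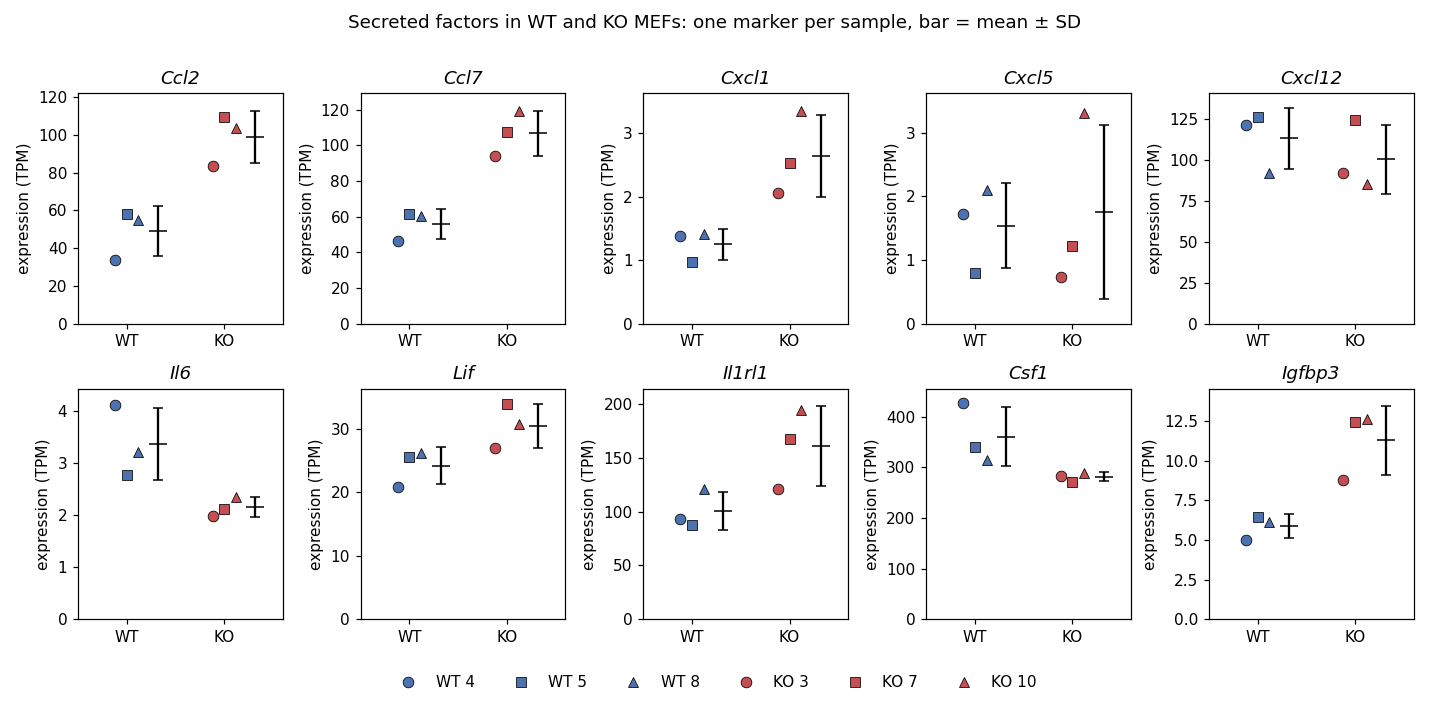
Expression of the 10 factors in TPM (linear axis from 0) in each WT (blue) and KO (red) sample, with the mean and SD of 3 samples beside the points. All 3 KO samples lie above all 3 WT samples for Ccl2, Ccl7, Cxcl1, Lif, Il1rl1 and Igfbp3, and below them for Il6 and Csf1. The groups overlap for Cxcl5 and Cxcl12.

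In 6 factors (Ccl2, Ccl7, Igfbp3, Cxcl1, Il1rl1 and Lif) each KO sample lay above each WT sample, as in 13.3% of all tested genes. Together the groups did not overlap for 8 of the 10 factors, as for 43.2% of tested genes in either direction. In Il6 and Csf1 each KO sample lay below each WT sample, as in 29.9% of tested genes. After rescaling by median ratios the same 6 factors remained separated upwards, beside 27.3% of tested genes, whereas only Il6 remained separated downwards, since the groups overlapped for Csf1, beside 29.5% of tested genes.

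Positions are given on build mm10, and the exons of the 10 factors overlap no other gene. The CC chemokine Ccl2 (ENSMUSG00000035385.5, chromosome 11 from 82035571 to 82037453, plus strand), also known as MCP-1, is the principal attractant of monocytes. The WT 4, 5 and 8 samples held 33.8, 58.0 and 54.9 TPM of its RNA, against 83.5, 109 and 103 TPM in the KO 3, 7 and 10 samples. WT 4 was the lowest sample, and the lowest KO sample was well above the highest WT sample. The mean rose from 48.9 ± 13.2 TPM in WT to 98.8 ± 13.6 TPM in KO MEFs (SD, n = 3 each; log2 fold change 1.03, SE 0.19, limma adjusted p-value 0.00437). The call was close to the threshold. It was lost after rescaling by median ratios (limma adjusted p-value 0.00777) and when WT 8, KO 3, KO 7 or KO 10 was left out (0.00677 to 0.0183), although the log2 fold change stayed between 0.79 and 1.17.

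Ccl7 (ENSMUSG00000035373.2, chromosome 11 from 82045712 to 82047525, plus strand), or MCP-3, attracts monocytes through some of the same receptors. Its gene starts 8.26 kb beyond the end of Ccl2. WT samples had 46.2, 61.2 and 60.6 TPM, and KO samples had 93.7, 108 and 119 TPM. As for Ccl2, WT 4 and KO 3 were the lowest of their groups. The mean rose from 56.0 ± 8.48 TPM in WT to 107 ± 12.7 TPM in KO MEFs (SD, n = 3 each; log2 fold change 0.92, SE 0.14, limma adjusted p-value 0.00135). Of the 3 called factors Ccl7 was the most stable, being lost among the fits without 1 sample only when KO 7 was left out (limma adjusted p-value 0.00577).

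The next genes of the CC cluster on chromosome 11, named here for their position, were scarcely expressed. Ccl11 lay 10.3 kb beyond Ccl7 at 0.228 to 1.16 TPM in WT and 0.621 to 0.858 TPM in KO samples, with overlapping groups. Ccl12 held 1 read in each WT sample and 3, 2 and 10 reads in KO 3, 7 and 10. Ccl8 reached at most 1.21 TPM. Among the 5 neighbouring genes Ccl2, Ccl7, Ccl11, Ccl12 and Ccl8, the difference between groups could thus be measured well only in Ccl2 and Ccl7. The reads of Ccl2 and Ccl7 could be told apart, since none of the 31-base words in the transcripts of Ccl2 or Ccl7 occurs in another gene.

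Macrophages also make CC chemokines, and their markers were higher in KO samples. Of 13 macrophage markers 11 were tested, and 10 of these 11 were higher in all 3 KO samples than in any WT sample, beside 13.3% of tested genes. The groups overlapped for Cd14 (log2 fold change 0.08, limma adjusted p-value 0.724). Of the 9 markers with at least 1 TPM in both group means, 2 (Lyz2 and C1qc) were called higher, beside 1.64% of all tested genes. At a limma adjusted p-value under 0.05, 8 of these 9 were higher, beside 7.14%, with a median log2 fold change of 1.00 over the 9. Adgre1 and Mrc1 reached 1 TPM in the KO mean alone. They are left out of the counts over the 9 markers but are among the 10 of 11 above. The summed level of all 13 macrophage markers, these 2 included, was 47.2 to 56.8 TPM in WT and 99.5, 109 and 194 TPM in KO 3, 7 and 10. Ptprc, a marker of all white blood cells, was at most 0.0921 TPM in WT and 0.257 TPM in KO samples. Itgam was at most 0.123 and 0.379 TPM. The summed level of 6 epithelial markers was also higher in KO samples, at 84.2 to 106.8 TPM against 72.3 to 81.2 TPM in WT. Of these, 2 (Krt8 and Krt18) were higher in all 3 KO samples than in any WT sample and 4 overlapped, and none was called (Krt8 limma adjusted p-value 0.0446). The defining markers Epcam and Cdh1 were at most 0.612 and 0.135 TPM in any sample. The 6 endothelial markers summed to 2.28 to 5.57 TPM in WT and 3.13 to 4.70 TPM in KO samples, which overlapped, while Kdr and Pecam1 among them were higher in all 3 KO samples than in any WT sample. The part of such cells in the rise of Ccl2 and Ccl7 was not tested, and in bulk samples more cells of a type and more RNA per cell cannot be told apart.

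Cxcl1 (ENSMUSG00000029380.11, chromosome 5 from 90891241 to 90893115, plus strand), a neutrophil attractant, was found at low levels. WT samples had 1.38, 0.973 and 1.41 TPM and KO samples had 2.05, 2.53 and 3.35 TPM, which correspond to 21, 16 and 25 reads and to 28, 46 and 56 reads. All KO samples were above all WT samples. The log2 fold change was 0.68 (SE 0.19, 95% interval 0.25 to 1.12) on the log2(TPM + 1) scale, which understates changes of low genes; the ratio of mean TPM was 2.11. With a limma adjusted p-value of 0.0268, Cxcl1 did not pass the threshold.

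Cxcl5 (ENSMUSG00000029371.7, chromosome 5 from 90759360 to 90761624, plus strand), of the same chemokine cluster, varied more between samples than between groups. Its levels were 1.72, 0.796 and 2.09 TPM in WT and 0.738, 1.22 and 3.31 TPM in KO samples, or 10 to 55 reads per sample. The coefficient of variation was 43.5% in WT and 77.8% in KO samples, the highest of the 10 factors in each group. The log2 fold change of 0.04 had a 95% interval of -0.72 to 0.81, so it covers differences of either sign. Without KO 10 the log2 fold change was -0.33, and without WT 5 it was -0.19.

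Cxcl5 and Cxcl1 lie 130.0 kb apart with the chemokine genes Ppbp, Pf4, Cxcl3 and Cxcl15 between them, and Cxcl2 follows 10.8 kb after Cxcl1. Ppbp, a platelet chemokine gene, had 4.11 to 14.6 TPM in WT and 7.72 to 10.7 TPM in KO samples, and Pf4 had 0.685 to 2.34 and 1.72 to 6.52 TPM. The groups overlapped in both. Cxcl2 had no read in any WT sample and 2, 5 and 4 reads in KO 3, 7 and 10.

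Cxcl12 (ENSMUSG00000061353.11, chromosome 6 from 117168535 to 117181367, plus strand), also called SDF-1, is a constitutive fibroblast chemokine. It had 121, 127 and 92.2 TPM in WT and 91.9, 124 and 85.3 TPM in KO samples. The groups overlapped, and the log2 fold change of -0.18 (SE 0.16, 95% interval -0.55 to 0.19, limma adjusted p-value 0.455) did not pass. It was -0.34 without KO 7, -0.32 without WT 8, -0.09 without WT 5 and -0.07 without KO 10, and -0.08 after rescaling by median ratios. Its signalling receptor Cxcr4 was at 0.378 to 1.43 TPM in WT and 1.54 to 1.98 TPM in KO samples (log2 fold change 0.62, limma adjusted p-value 0.0797). The scavenging receptor Ackr3 overlapped between groups at 4.41 to 12.7 and 5.67 to 9.65 TPM.

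The cytokines Il6 and Lif both signal through the shared receptor chain Il6st (gp130), and their KO means lay on opposite sides of WT. Il6 (ENSMUSG00000025746.11, chromosome 5 from 30013114 to 30019981, plus strand), a central cytokine of the acute inflammatory response, had 4.12, 2.77 and 3.21 TPM in WT and 1.98, 2.13 and 2.35 TPM in KO samples. These levels rested on 59 to 81 reads in WT and 35 to 51 reads in KO samples. Each KO sample was below each WT sample. The log2 fold change of -0.46 (SE 0.17, 95% interval -0.83 to -0.09) had a limma adjusted p-value of 0.0682 and did not pass. In mean TPM the KO level was 63.95% of WT.

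Lif (ENSMUSG00000034394.14, chromosome 11 from 4257557 to 4272514, plus strand), which supports embryonic stem cells and acts in inflammation, had 20.8, 25.5 and 26.2 TPM in WT and 26.9, 33.8 and 30.7 TPM in KO samples. KO 3 was just above WT 8, and the groups did not overlap. The log2 fold change was 0.32 (SE 0.13, 95% interval 0.04 to 0.61), and the limma adjusted p-value of 0.0888 missed the threshold. After rescaling by median ratios Lif varied little within the KO group, with a coefficient of variation of 2.7% instead of 11.4%, and its limma adjusted p-value was 0.0319.

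Il1rl1 (ENSMUSG00000026069.15, chromosome 1 from 40429570 to 40465415, plus strand), also named ST2, encodes the receptor of interleukin 33 and, from a shorter transcript, a soluble decoy. It had 93.6, 88.0 and 121 TPM in WT and 122, 168 and 195 TPM in KO samples. The margin between the highest WT sample and the lowest KO sample was very small. The mean was 101 ± 17.8 TPM (SD, n = 3) in WT and 162 ± 37.2 TPM (SD, n = 3) in KO MEFs. A log2 fold change of 0.66 (SE 0.18, 95% interval 0.26 to 1.06) came with a limma adjusted p-value of 0.0228, and under the same thresholds the gene passed in 1 alternative, when genes under 5 TPM in both group means were left out (0.00387). The 5 annotated transcripts and the 2 start sites were summed in the table, so the receptor and the decoy could not be separated.

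Mast cells carry large amounts of Il1rl1, and their markers were nearly absent. Of 8 mast cell markers, 4 were in the table and all stayed under 1 TPM in every sample. Their sum was 0.649 to 1.17 TPM in WT and 0.925 to 1.67 TPM in KO samples. In TPM the groups overlapped for 3 of them. Cma1 was higher in all KO samples, with 1 read in each WT sample and 1, 3 and 6 reads in KO 3, 7 and 10. The part of mast cells in the Il1rl1 level was not tested. The ligand Il33 was at 0.599 to 0.877 TPM in WT and 0.619 to 1.29 TPM in KO samples, under the filter on low expression. The co-receptor Il1rap overlapped between groups, with a log2 fold change of -0.25 (limma adjusted p-value 0.244).

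Csf1 (ENSMUSG00000014599.10, chromosome 3 from 107741048 to 107760469, minus strand), the growth factor of macrophages, was the most abundant of the factors in both groups. WT samples had 426, 341 and 314 TPM, and KO samples had 283, 271 and 289 TPM. The KO samples were close together and all below the WT samples, of which WT 4 was the highest. The log2 fold change of -0.35 (SE 0.12, 95% interval -0.62 to -0.08) did not pass (limma adjusted p-value 0.0598), and without WT 4 it was -0.22. Its receptor Csf1r, a macrophage gene, had 1.09 to 1.68 TPM in WT and 2.26 to 4.77 TPM in KO samples (log2 fold change 0.83, limma adjusted p-value 0.0229), which did not pass. Exons of Csf1r overlap an opposite-strand gene over 873 bp.

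Igfbp3 (ENSMUSG00000020427.11, chromosome 11 from 7206086 to 7213923, minus strand) encodes the main carrier of insulin-like growth factors in blood and is also released by fibroblasts. It had 5.01, 6.45 and 6.10 TPM in WT and 8.79, 12.4 and 12.6 TPM in KO samples. KO 3 was the lowest KO sample but still above each WT sample. The mean rose from 5.85 ± 0.752 TPM in WT to 11.3 ± 2.15 TPM in KO MEFs (SD, n = 3 each; log2 fold change 0.83, SE 0.16, limma adjusted p-value 0.00467). The call held without KO 3 and was lost without any one of the other 5 samples, with limma adjusted p-values of 0.00798 to 0.0187 and log2 fold changes of 0.74 to 0.89.

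**Figure D2:**
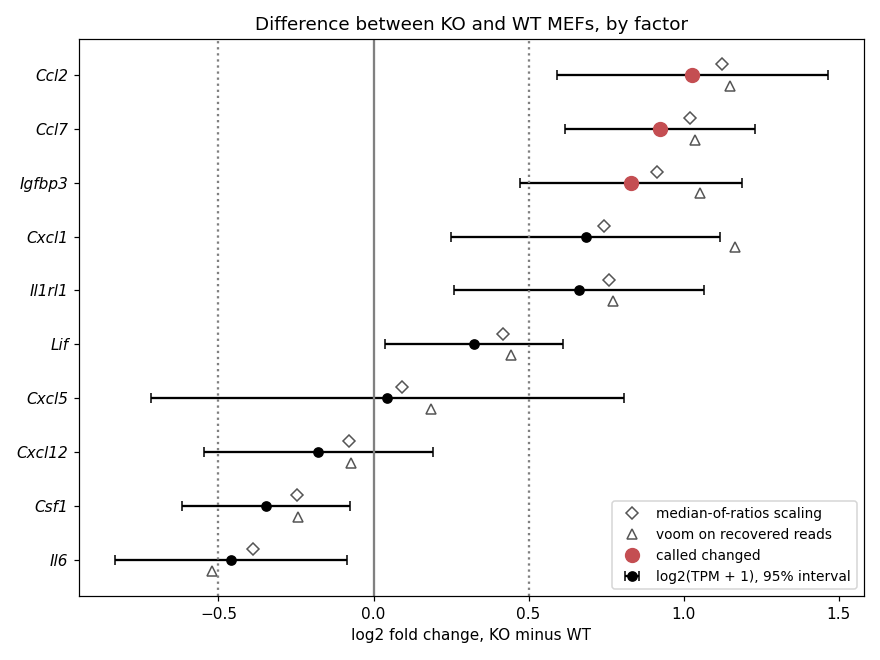
Difference between KO and WT (log2 fold change) of every factor on the log2(TPM + 1) scale, with its 95% interval from limma (n = 3 per group); red marks the factors called changed, open diamonds the values after median-of-ratios scaling and open triangles those of voom on recovered reads. Ccl2, Ccl7 and Igfbp3 lie at 0.83 to 1.03, while the intervals of Cxcl5 and Cxcl12 span 0.

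The 10 factors covered a wide range of levels. In WT samples Csf1 averaged 360 TPM, Cxcl12 113, Il1rl1 101, Ccl7 56.0, Ccl2 48.9, Lif 24.1, Igfbp3 5.85, Il6 3.37, Cxcl5 1.54 and Cxcl1 1.25 TPM. Neighbours in this order whose samples overlapped were Cxcl12 and Il1rl1, Ccl7 and Ccl2, and Cxcl5 and Cxcl1. In KO samples the order was Csf1, Il1rl1, Ccl7, Cxcl12, Ccl2, Lif, Igfbp3, Cxcl1, Il6 and Cxcl5. There Ccl7 overlapped with Cxcl12, Cxcl12 with Ccl2, Cxcl1 with Il6 and Il6 with Cxcl5. Il6 was thus above Cxcl1 in all WT samples, and Cxcl1 was above Il6 within each of the 3 KO samples, although the ranges of the genes overlapped there.

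The samples of a group did not contribute alike. KO 3 was the lowest KO sample for 8 of the 10 factors, as it was for 76.2% of all tested genes, and KO 10 was the highest for 7 factors against 22.7% of tested genes. With median-of-ratios scaling KO 3 was the lowest for 6 factors and for 38.7% of genes, and KO 10 was the highest for 7 factors, against 30.4% of genes. These are descriptions of 3 samples. WT 4 was the lowest WT sample for Ccl2, Ccl7, Igfbp3 and Lif and the highest for Il6 and Csf1, so that the differences between WT 4 and the other WT samples had the opposite sign in these 2 sets. Leaving out WT 4 moved the log2 fold change of Ccl2 to 0.79 and that of Il6 to -0.34.

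**Figure D3:**
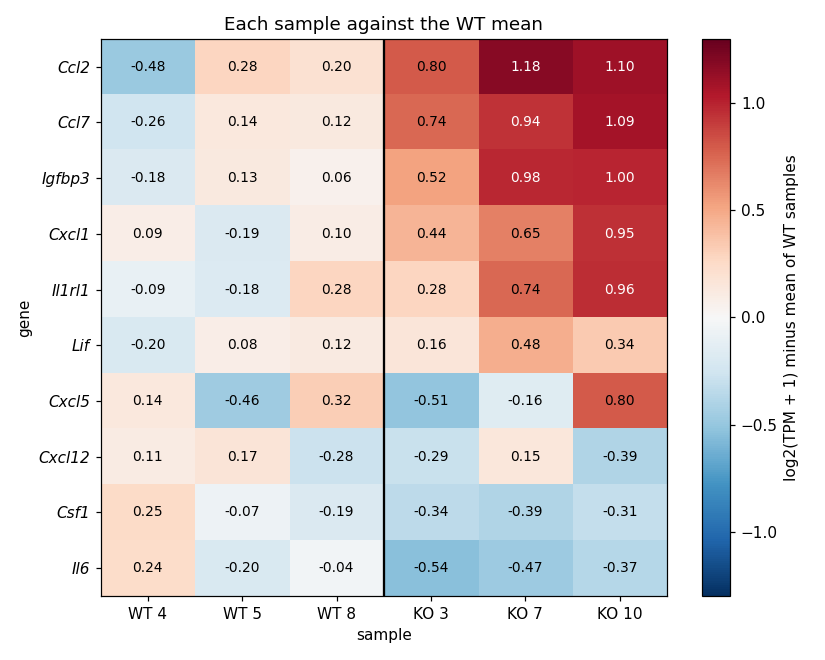
Log2(TPM + 1) of each factor (rows) in each sample (columns) minus the mean of the 3 WT samples. KO 7 and KO 10 hold the largest positive values, 1.18 and 1.10 for Ccl2, KO 3 is weaker at 0.80, and Il6 and Csf1 are negative in all KO samples.

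Other genes of the same pathways were compared as lists, described by counts. Of 8 tested CC chemokines outside the 10 factors, 1 was called higher, beside 1.64% of all tested genes. This was Ccl20, an attractant of lymphocytes and dendritic cells, with 1.91, 3.13 and 3.64 TPM in WT and 7.45, 7.48 and 8.83 TPM in KO samples (log2 fold change 1.22, SE 0.18, limma adjusted p-value 0.00147). Its call was lost without KO 3 or KO 7, which left 0 called genes in the list. Of the 8 genes, 3 (Ccl3, Ccl6 and Ccl12) reached 1 TPM in the KO mean alone and were tested only for that reason. The other 5 had a median log2 fold change of 0.06. Of 6 other tested CXC, CX3C and XC chemokines none was called. At an unadjusted limma p-value under 0.05, 1 was higher and 0 were lower, beside 12.2% and 27.2% of all tested genes. Voom on recovered reads called 1 higher, beside 4.33%. The median was 0.27, and the most abundant member, Cxcl14, had 38.0 to 51.6 TPM in WT and 57.3 to 74.8 TPM in KO samples (limma adjusted p-value 0.0227).

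The receptors of these chemokines were mostly not expressed. Of 16 chemokine receptors in the table, 3 passed the filter on low expression and none of them was called, nor by voom, which called 4.33% of all tested genes higher and 12.1% lower. Cxcr4 reached 1 TPM in the KO mean alone. Of the other 2, 1 was higher at an unadjusted limma p-value under 0.05, beside 12.2%. Cxcr2, the receptor for Cxcl1 and Cxcl5, had at most 1 read in any sample. The receptor Ccr2 of Ccl2 was not analysed here. Thus 13 of the 16 receptors stayed under 1 TPM in every sample, and Ackr3 was the most abundant of the list.

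In the IL-6 family 2 of 13 tested genes were called lower and none higher, beside 9.03% and 1.64% of all tested genes. Il11ra1, the receptor of interleukin 11, fell from a mean of 12.6 ± 1.98 TPM in WT to 4.22 ± 0.654 TPM in KO MEFs (SD, n = 3 each; log2 fold change -1.37, limma adjusted p-value 0.00042). Ctf1, or cardiotrophin 1, a ligand that acts through the Lif receptor, fell from a mean of 3.71 ± 0.612 TPM in WT to 1.02 ± 0.232 TPM in KO MEFs (SD, n = 3 each; log2 fold change -1.22, limma adjusted p-value 0.00126). Both are uncertain to the extent that Il11ra1 has near copies and that Ctf1 shares 87 bp of exon with the opposite-strand gene Ctf2. The receptor chains Il6st, Lifr and Il6ra, which carry the signals of Il6 and Lif, were not called, with log2 fold changes of -0.05, 0.32 and 0.30. The median log2 fold change of the list was 0.01, and without WT 8 only 1 gene of it was called lower.

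In the IL-1 family, which shares its signalling proteins with Il1rl1, 2 of 11 tested genes were called lower, beside 9.03% of all tested genes, and none higher. The 10 genes with at least 1 TPM in both group means had a median log2 fold change of 0.01, and Il18 reached 1 TPM in the WT mean alone. The adaptor Traf6 fell from a mean of 9.82 ± 0.678 TPM in WT to 5.45 ± 0.456 TPM in KO MEFs (SD, n = 3 each), and its limma adjusted p-value was 0.00205. The kinase Irak4 fell from a mean of 7.57 ± 0.988 TPM in WT to 3.89 ± 0.626 TPM in KO MEFs (SD, n = 3 each), and its limma adjusted p-value was 0.00404. An opposite-strand gene covers 395 bp of the Irak4 exons. Neither call was stable, since no gene of the list was called without any one of WT 4, WT 5, WT 8, KO 3 or KO 10, and 1 was called without KO 7.

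Among genes of NF-kB and C/EBP control 1 of 22 tested was called lower, beside 9.03% of all tested genes, and none higher. The 21 genes with at least 1 TPM in both group means had a median log2 fold change of 0.05. The inhibitor Nfkbib fell from a mean of 19.6 ± 1.44 TPM in WT to 11.8 ± 1.17 TPM in KO MEFs (SD, n = 3 each; log2 fold change -0.68, limma adjusted p-value 0.00255), though its exons overlap 2 opposite-strand genes. Cebpb, chosen after its values were seen, had 6.24, 10.9 and 12.2 TPM in WT and 23.4, 32.5 and 15.9 TPM in KO samples (log2 fold change 1.20, limma adjusted p-value 0.0104), which did not pass. Without WT 5, WT 8, KO 3 or KO 10 no gene of this list was called lower. Exons of Cebpb overlap an opposite-strand gene over 312 bp. At an adjusted p-value under 0.05 Cebpb was the 1 gene of the list higher in KO, beside 7.14% of tested genes, and 3 of the 21 were lower, beside 20.7%. Besides Nfkbib these were Tnfaip3, an inhibitor of NF-kB (log2 fold change -0.59, limma adjusted p-value 0.0412), and Ikbkb, a kinase that activates it (-0.49, 0.0196), likewise named after their values were seen. Tlr3, a receptor for double-stranded RNA, reached 1 TPM in the WT mean alone, at 1.24 TPM against 0.278 TPM in KO, and is not counted. Its exons overlap an opposite-strand gene over 381 bp.

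Of 11 tested IGF and IGFBP genes other than Igfbp3 none was called, and voom called 1 higher, beside 4.33% of all tested genes. With an unadjusted limma p-value under 0.05, 5 were higher, beside 12.2%, and 1 was lower, beside 27.2%. Their median log2 fold change was 0.40. Igfbp7, the most abundant, had 578, 606 and 601 TPM in WT and 942, 953 and 745 TPM in KO samples (log2 fold change 0.55, limma adjusted p-value 0.00649). The ligands Igf1 and Igf2, which Igfbp3 binds, had log2 fold changes of 0.66 and 0.40 with limma adjusted p-values of 0.0459 and 0.21, and Igf2 shares 3596 bp of exon with another gene of its strand. Of 4 tested colony stimulating factors and receptors besides Csf1 none was called, and voom called 0. The number higher at an unadjusted limma p-value under 0.05 was 1, beside 12.2% of all tested genes, and 0 were lower, beside 27.2%. Csf2ra, the most abundant of these, had 6.19 to 9.51 TPM in WT and 6.18 to 9.99 TPM in KO samples.

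**Figure D4:**
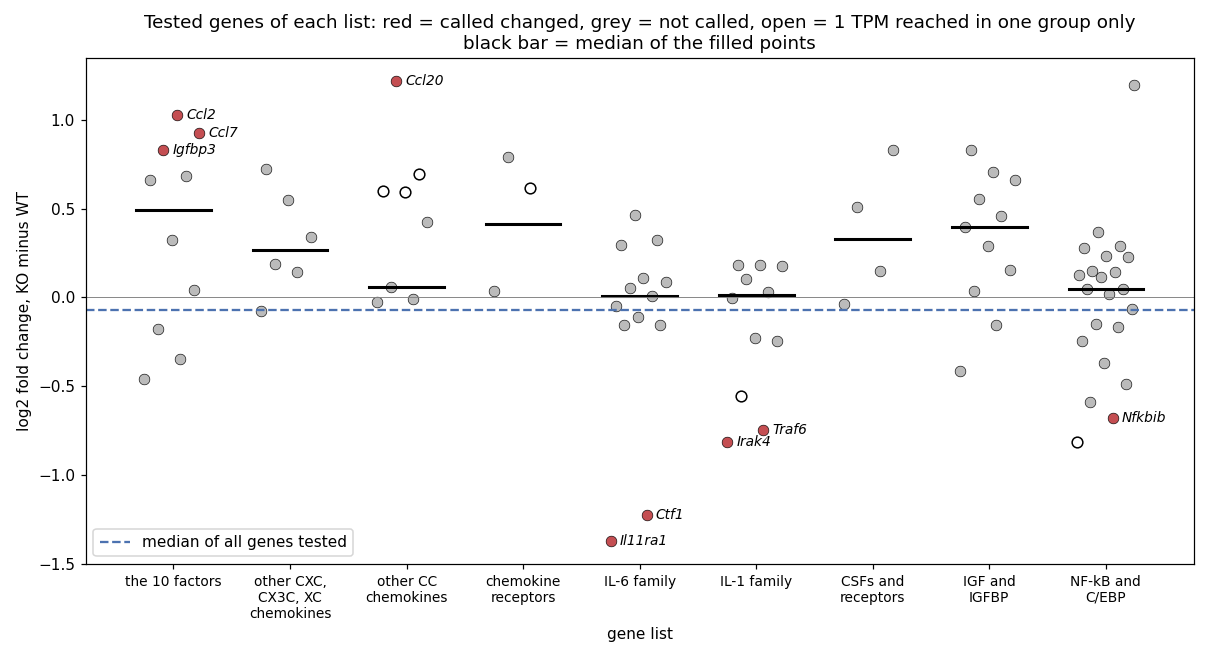
Difference between KO and WT (log2 fold change) of every tested gene, by list (one point per gene; horizontal position within a list carries no value), with open points for genes that reached 1 TPM in the mean of 1 group only, black bars for the median of the filled points and the median of all tested genes, -0.07, as a dashed line. Called genes are red: Ccl2, Ccl7, Igfbp3 and Ccl20 are higher and Il11ra1, Ctf1, Traf6, Irak4 and Nfkbib are lower.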

How the data were processed

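RNA-seq reads of 6 MEF samples (3 WT, 3 KO) were aligned by the authors to mm10 with STAR, per the study's methods; the submitters' processing notes also name Bowtie 0.12.2. The counting program and its strand setting were not given in the sources used here. The authors deposited 1 table with TPM per gene and sample. Its log2 fold change and adjusted p-value columns hold the authors' own comparison and were not used. All 26898 gene identifiers matched GENCODE M21, which gave positions and exon lengths on the same build.

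TPM multiplied by merged exon length came in whole reads (tolerance 0.05) for 100% of the values up to 200 reads, from which the reads of all genes were recovered. The log2(TPM + 1) values of both groups entered limma (version 3.58.1, R 4.3.3; variance trend, no covariates). A gene was tested if its WT or KO mean reached 1 TPM, as the study's filter asks, which kept 14799 genes. Calls used the study's thresholds (adjusted p-value under 0.005, log2 fold change beyond 0.5), which the authors had set on DESeq2 results. Recovered reads entered an alternative fit with limma's voom, scaled by median ratios. The test was also checked on simulated data. A first criterion, recovery of most 2-fold changes, was not met and was replaced by one on larger changes, so a change of 2-fold can be missed with 3 samples per group. Alternatives were another pseudocount (0.1), no filter or one at 5 TPM, median-of-ratios scaling, a limit of 0.05 without a fold limit, and leaving out each sample.

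The members and gene lists were chosen with earlier results of these data known, so no list was tested as a set. Named genes were the 10 factors, Kansl1, their receptors or ligands, genes called in each list and, where none was called, the most abundant one. Outside this rule, cluster neighbours were named for their position, marker genes as checks of cell type, genes that passed the filter in 1 group alone for that reason, and Cebpb, Tlr3, Tnfaip3 and Ikbkb after their values were seen. Shared words were counted over 31 bases of the GENCODE transcripts.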

Additional observations from a re-analysis of the deposited data

How the results depend on the processing

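No paired analysis was possible because no replicate number occurs in both genotypes. With 3 samples per group, calls near the threshold depended on single samples, and Cxcl5, with 10 to 55 reads, had the widest interval of the 10 factors. Ccl2, Ccl7, Igfbp3, Cxcl1, Il1rl1 and Lif stayed positive, and Il6, Csf1 and Cxcl12 negative, in all alternatives run; only Cxcl5 changed sign.

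Testing all 26898 genes ended the calls of Ccl2 (1.03, limma adjusted p-value 0.0254; 0.000197 to 0.0254 over the alternatives with all samples), Ccl7 (0.92, 0.00922; 6.15e-05 to 0.00922) and Igfbp3 (0.83, 0.0235; 0.000603 to 0.0235), which left 0 factors called higher. It also left 0 called genes in the CC chemokine, IL-6 family, IL-1 family and NF-kB lists. In that fit 55 of all 26898 genes were called higher and 286 lower. Median-of-ratios scaling ended the call of Ccl2 (1.12), and the filter at 5 TPM added Il1rl1 (0.66). An adjusted p-value under 0.05 without a fold limit gave 5 of 10 factors higher, adding Cxcl1 (0.68) and Il1rl1 (0.66). It gave 1 higher gene each among 6 CXC chemokines, 3 chemokine receptors, 4 colony stimulating factors and 22 NF-kB genes. Of 11 IGF genes 4 were higher, and of the 22 NF-kB genes 4 were lower (Tlr3 included). At this limit 7.14% of all tested genes were higher and 20.7% lower. Voom called 1 higher CXC chemokine, 2 CC chemokines, 1 IL-6 family, 1 IGF and 1 NF-kB gene, and 2 lower NF-kB genes. It called 4.33% of all tested genes higher and 12.1% lower. The filter at 5 TPM gave 1 lower IL-6 family gene, 1 higher IGF gene and 1 higher NF-kB gene. In that fit 3.31% of 10443 tested genes were called higher, and 1534 of the 10443 were called lower. The causes were not tested.

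Without 1 sample, log2 fold changes ranged from 0.79 to 1.17 for Ccl2, 0.79 to 1.01 for Ccl7, 0.74 to 0.99 for Igfbp3, -0.33 to 0.32 for Cxcl5, -0.34 to -0.07 for Cxcl12 and -0.44 to -0.22 for Csf1. Voom gave 1.17 for Cxcl1 and -0.07 for Cxcl12. The number of factors called higher ranged from 0 (without KO 7) to 2, with 1 without WT 8 or KO 10. It was 2 without WT 4, WT 5 or KO 3, beside 1.7%, 0.951% and 0.826% of all tested genes. Over all fits without 1 sample the other counts were 0 to 1 higher CC chemokines, 0 to 1 higher and 1 to 2 lower IL-6 family genes, 0 to 1 lower IL-1 family genes, and 0 to 1 higher and 0 to 1 lower NF-kB genes. Those fits called 0.568% to 1.7% of all tested genes higher and 617 to 938 genes lower, out of 14800 to 14899 genes tested.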
